A study of Mus musculus with 10 samples.

Results

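Transcripts of the presynaptic vesicle cycle and of the SNARE fusion machinery were examined in brain RNA of Cin85-/- mice. The members are the probes with a single gene symbol that names a synaptotagmin, a syntaxin or syntaxin-binding protein, a VAMP, a SNAP-25 family protein, a synapsin, SV2, Rab3, RIM, Unc13, complexin, synaptogyrin, SNAP adaptor, a synuclein, synaptophysin, synaptoporin, Nsf, Bassoon, Piccolo or a subunit of the vacuolar proton pump (V-ATPase). This gave 97 probes for 71 genes, out of 14030 probes with 1 symbol and 20355 probes in all. Male Cin85-/- mice, 15 weeks old, provided 5 RNA samples from brain, and each was hybridised on 2 two-colour arrays against a pool of wildtype (wt) males of the same age. On 1 array of each mouse the mutant RNA carried Cy5 and on the other Cy3, which makes 10 arrays. The pool is a single control without replicates, held 5 animals by the series design and 6 by the labelling protocol, and its own spread enters no test. The sources used here do not give the allele or the genetic background of the line. Brain is named by the sample titles, the design and the source name of the pool, whereas the source name of the mutant RNA reads Kdn Cin85-/-, with Kdn unexplained.

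A synaptic vesicle is filled with transmitter on the strength of a proton gradient that the V-ATPase builds. It is tethered at the active zone by Rab3, RIM, Bassoon and Piccolo and primed by Munc13. A SNARE on the vesicle (VAMP) then zips together with SNAREs on the plasma membrane (syntaxin and SNAP-25), while synaptotagmin senses calcium and complexin holds the complex ready. After fusion Nsf and its SNAP adaptors take the SNAREs apart. Neurons use isoforms of their own for many of these steps, whereas other syntaxins, VAMPs and SNAP proteins serve the Golgi, endosomes and the cell surface of most cells. CIN85, encoded by Sh3kbp1, is an adaptor that binds endophilins and Cbl ubiquitin ligases and takes part in endocytosis.

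The deposited values are log2 ratios between the channels of an array, whose numerator the sources used here do not give. Each array was centred on its median, and the mean of the 2 arrays of a mouse, as deposited, is called the pair mean. If all columns run mutant over pool, the pair mean is the difference from the pool. If they all run Cy5 over Cy3, the difference is instead the dye term, which is the value with the mutant in Cy5 minus that with the mutant in Cy3, divided by 2. Counts of calls and class medians are therefore given both ways. Most cell type markers and many named members are given as pair means alone, and no sign settles which sample was higher. In bulk tissue, fewer cells of a type and less RNA per cell cannot be told apart. Ratios carry no level, so markers cannot name a tissue that both samples share. They can only show a difference between the mutant RNA and the pool. The gene medians of neuron and kidney markers were -0.04 and 0.24 as pair means, and -0.05 and -0.16 as dye terms. What they say of the source name was not tested.

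Arrays of the same dye orientation resembled each other, with median Spearman correlations over all probes between 0.20 and 0.38 for 9 arrays, and those of opposite orientation ran against each other (-0.40 to -0.19). The array of mouse 3 with the mutant in Cy3 stood apart, at -0.048 with its own orientation and 0.043 with the other. It also had the most missing values, 3539 against 931 to 1582 on the others, and the widest interquartile range, 1.43 against 0.45 to 0.99. Each array repeated a single extreme value, here called capped, at 65 to 264 probes. Capped values were positive on all 5 arrays with the mutant in Cy5 and negative on all 5 with it in Cy3. Arithmetically, that places the very low channel always in Cy3 if the columns run mutant over pool, and always in the pool if they run Cy5 over Cy3. Sh3kbp1 itself, the targeted gene, gave a pair mean of 0.0082 ± 0.14 (SD, n = 5) on probe 8640, from -0.16 to 0.22 over the mice (adjusted p = 0.989 by limma). Its mice lay on both sides of 0. Whether its sequence lies inside the deleted stretch is unknown here, so it checks no label.

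No member passed the test against the pool. Of the 97 member probes, 85 had both arrays in at least 4 mice and were tested, which covers 64 genes. By limma, 0 of 85 passed an adjusted p of 0.05, and so did 0 of all 16939 probes tested (0%). At an unadjusted p of 0.05 there were 3 of 85 (3.53%), against 632 of 16939 (3.73%). The 3 were the V-ATPase subunits Atp6v1c2 and Atp6v0a1 and the synaptogyrin Syngr4. The fit of all 10 arrays with the mouse as a random block also called 0. All 5 mice had the same sign at 3 of 67 complete member probes (4.48%), against 7.01% of all complete probes.

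Read as the difference from the pool, the pair mean was narrowly bounded at many members. Its 95% interval excluded changes beyond 1.5-fold for 60 of 85 member probes (70.6%), against 60.7% of all probes. Changes beyond 2-fold were outside the interval for 81 of 85 (95.3%), against 85.8%. The other 4 were 1 probe each of Rims1, Stx5a, Vamp5 and Nsf. By class, the 1.5-fold count was 22 of 27 neuronal probes (81.5%), 23 of 33 general trafficking probes (69.7%) and 14 of 23 V-ATPase probes (60.9%). Read as dye terms, fewer were bounded so narrowly. The interval stayed within 1.5-fold at 42 of 85 members (49.4%), against 38.9% of all probes, and within 2-fold at 69 of 85 (81.2%), against 79.5%. The 1.5-fold count was then 17 of 27 neuronal (63.0%), 13 of 33 general (39.4%) and 10 of 23 V-ATPase probes (43.5%). Some unadjusted dye intervals lay wholly above 0, such as 0.36 to 0.98 for Nsf probe 5118 and 0.80 to 1.86 for Atp6v1g3.

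Among the SNAREs of synaptic exocytosis, Vamp1 and Vamp2 are the vesicle partners and Stx1a the plasma membrane partner. Vamp2 on probe 16043 had pair means of -0.07, -0.03, -1.12, -0.14 and 0.04 in mice 1 to 5, with a mean of -0.26 ± 0.48 (SD, n = 5). Its adjusted p in limma was 0.911. Mouse 3 lay far below the others. With the mutant in Cy5 its arrays read 0.12, 0.10, 0.06, 0.07 and 0.22, and with the mutant in Cy3 -0.26, -0.15, -2.30, -0.36 and -0.13. The low value thus came from the array that stood apart, and without mouse 3 the mean was -0.05. On all 10 arrays Vamp2 was above 0 with the mutant in Cy5 and below 0 with it in Cy3, so the orientations did not overlap. Among all complete probes, 30.5% had a dye term of the same sign in all 5 mice. The share of all probes whose orientations do not overlap was not counted, so such a separation is not read as particular to a member. Vamp1 gave -0.12, 0.27, 0.17, 0.13 and 0.17 in the 5 mice, with a mean of 0.12 ± 0.14 (SD, n = 5) and a 95% interval from -0.11 to 0.36. Stx1a spread most of the 3, at 0.29, 1.20, -0.25, -0.91 and 0.18, with a mean of 0.10 ± 0.77 (SD, n = 5) and mice on both sides of 0. Dye terms were 0.38 ± 0.45 for Vamp2, 0.24 ± 0.25 for Vamp1 and -0.36 ± 0.46 for Stx1a (SD, n = 5 each), with adjusted p of 0.230, 0.258 and 0.250 by limma.

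**Figure D1:**
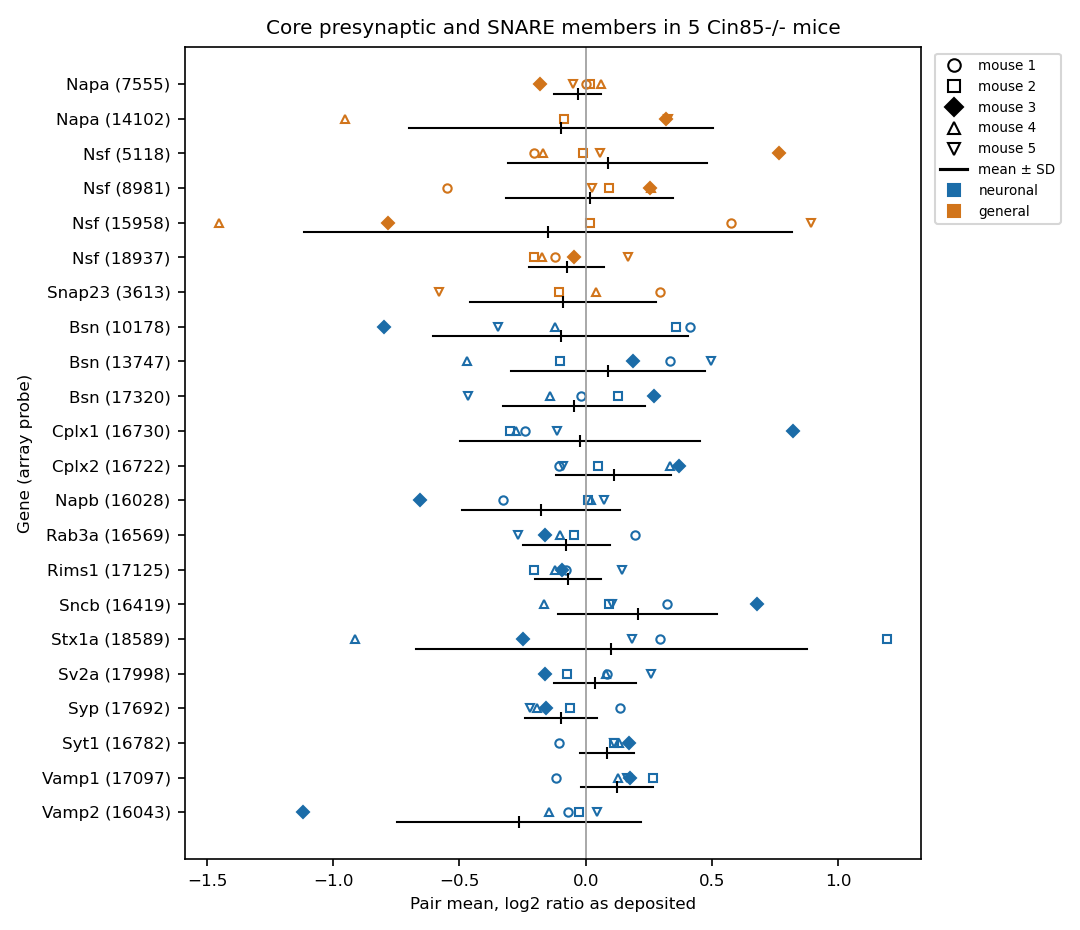
Pair means (log2 ratio as deposited, horizontal axis) of the core probes that were tested, except the Rims1 probe with a capped value. Symbols are the mice (mouse 3 filled), colours the class, and the black line under each row is the mean ± SD; mouse 3 sits apart at Vamp2 (-1.12), Cplx1 (0.82) and Nsf probe 5118 (0.77).

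The general SNAREs covered the cell surface, endosomes and Golgi. Of 22 tested probes in this group, 14 had a negative pair mean and 8 a positive one, with a median of -0.04. Among all probes tested, 49.9% were negative. Dye terms of the group divided into 11 positive and 11 negative. Snap23, the widely expressed relative of SNAP-25, gave 0.29, -0.11, 0.04 and -0.58 in mice 1, 2, 4 and 5, with a mean of -0.09 ± 0.37 (SD, n = 4). Snap47 had 0.05, 0.06, 0.23, 0.14 and -0.07. Vamp8, a SNARE of late endosomes and secretory granules, gave -0.95, 0.10, -0.30, 0.01 and 0.23, a mean of -0.18 ± 0.47 (SD, n = 5) in which mouse 1 was lowest. Its dye term was -0.42 ± 0.13 (SD, n = 5), negative in all 5 mice, with a limma adjusted p of 0.102. Stx12, an endosomal syntaxin, was at 0.19 ± 0.50 (SD, n = 5) on probe 13641 and at 0.03 on its other probe. Mouse 3 was highest on probe 13641, at 0.96, and the mean was -0.0075 without it. Stx17, which acts in the fusion of autophagosomes with lysosomes, had means of -0.19, -0.04 and 0.17 on 3 probes. The tightest member of all in the pair mean was Stx6, a syntaxin of the trans-Golgi network, whose probe 2905 gave -0.06, -0.05, -0.08, 0.02 and 0.03. Its mean was -0.03 ± 0.05 (SD, n = 5), with an interval from -0.23 to 0.18. The single arrays of this probe spread more, from -0.325 to 0.286 with the mutant in Cy5 and from -0.439 to 0.227 in Cy3. Vamp3, the widely expressed relative of Vamp2, had both arrays in only 3 mice, at 0.22, -3.16 and 1.40, and was not tested.

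Several general SNAREs had a larger dye term than pair mean, as did the arrays as a whole. Over all tested probes the median absolute value was 0.26 for the dye term and 0.12 for the pair mean. Over general SNARE probes it was 0.26 and 0.09. Snap29, a SNARE of endosomes and autophagosomes, read 0.42, 0.65, 0.55, 0.66 and 1.20 on probe 7796 with the mutant in Cy5. With the mutant in Cy3 it read -1.03, -0.72, 0.50, -1.04 and -0.94, again with the mouse 3 array apart. Its dye term was 0.67 ± 0.39 (SD, n = 5) and its pair mean 0.02 ± 0.32 (SD, n = 5). The second Snap29 probe, 19257, had a dye term of the opposite sign but a wide spread, at -0.33 ± 0.95 (SD, n = 5). Stx8, a syntaxin of late endosomes, gave 0.51 ± 0.19 (SD, n = 4) on probe 13433 and -0.36 ± 0.83 (SD, n = 5) on probe 6333. Stx6 gave -0.57 ± 0.32 (SD, n = 4) on probe 6051 and 0.04 ± 0.27 (SD, n = 5) on probe 2905. The tighter dye term of 1 probe was thus not matched in sign or size by the other probe of these 3 genes.

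In the pair mean, regulators of the SNARE complex gave no common direction, with 6 tested probes positive and 6 negative. Their dye terms leaned to the positive side, at 9 probes against 3. By gene, 7 of 8 dye terms lay above 0, and the gene median was 0.14, against -0.05 for all genes. In mouse 1 this dye median was below 0, at -0.10, and in mice 2 to 5 it lay between 0.10 and 0.26. Complexins clamp and assist fusion. Cplx1 gave -0.24, -0.30, 0.82, -0.27 and -0.11 in the 5 mice, with a mean of -0.02 ± 0.48 (SD, n = 5). Mouse 3 was the only one above 0, and without it the mean was -0.23. The dye term was 0.05 ± 0.22 (SD, n = 5). Here both arrays of mouse 3 were high, at 0.53 with the mutant in Cy5 and 1.11 in Cy3, against values from -0.48 to 0.12 on the other 8 arrays. Cplx2 was at 0.11 ± 0.23 (SD, n = 5), with an interval from -0.17 to 0.39. Sncb, beta-synuclein, had 0.32, 0.09, 0.68, -0.16 and 0.10, a mean of 0.21 ± 0.31 (SD, n = 5), or 0.09 without mouse 3. On its 5 arrays with the mutant in Cy5 it read from 0.39 to 0.80, and in Cy3 it read -0.15, -0.39, 0.97, -0.84 and -0.59.

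The adaptors and the ATPase that disassemble SNARE complexes are used in all cells, apart from the brain form Napb. Napb gave -0.33, 0.01, -0.66, 0.02 and 0.07, with a mean of -0.18 ± 0.31 (SD, n = 5) and -0.06 without mouse 3. Napa, its ubiquitous relative, was near 0 on probe 7555, at 0.00, 0.02, -0.18, 0.06 and -0.05, with an interval from -0.25 to 0.19 and a dye term of -0.06 ± 0.12 (SD, n = 5). A second Napa probe, 14102, spread far more, at -0.09, 0.32, -0.96 and 0.33 in mice 2 to 5, a mean of -0.10 ± 0.60 (SD, n = 4). Its dye term was 0.47 ± 0.52 (SD, n = 4), positive in all 4 mice. Nsf had 4 tested probes, with means of 0.09, 0.02, -0.15 and -0.07 and SDs of 0.39, 0.33, 0.97 and 0.15 (n = 5 each). Its dye terms ranged from -0.13 to 0.67, with both signs among the probes. On probe 5118 the values with the mutant in Cy5 were 0.32, 0.70, 1.10, 0.87 and 0.79, and in Cy3 -0.73, -0.72, 0.44, -1.21 and -0.68. Outside mouse 3 the orientations did not overlap. Of the syntaxin-binding proteins of general traffic, Stxbp2 gave 0.18 ± 0.42 (SD, n = 5) with a dye term of 0.65 ± 0.39. Its pair mean was 0.02 without mouse 3, which read 0.83. Stxbp3 gave 0.03 ± 0.40 (SD, n = 5).

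Synaptotagmins, the calcium sensors and their relatives on vesicles, were the tightest group, with a median SD of 0.19 between mice over 10 tested probes, against 0.34 over all probes. Syt1, the sensor of fast release, gave -0.10, 0.11, 0.17, 0.13 and 0.11 on probe 16782, with a mean of 0.08 ± 0.11 (SD, n = 5) and an interval from -0.14 to 0.31. Mouse 1 alone was below 0. The dye term was -0.26 ± 0.20 (SD, n = 5), negative in all 5 mice. The other 2 Syt1 probes had 7 and 8 values on the 10 arrays and were not tested. Syt5 was below 0 in each of the 4 mice measured, at -0.09, -0.19, -0.21 and -0.21. Its mean was -0.18 ± 0.06 (SD, n = 4) with a limma adjusted p of 0.911, and its dye term was near 0. On the single arrays Syt5 ran from -0.60 to 0.28 with the mutant in Cy5, so the single arrays spread far more than their means. Syt4 gave -0.11 ± 0.16 (SD, n = 5), Syt13 0.10 ± 0.23 (SD, n = 5) and Syt11 means of 0.09, 0.04 and -0.02 on 3 probes. Syt7, a sensor of slower release, was at 0.33 ± 0.69 (SD, n = 5) on probe 17700. That mean came from mouse 3, at 1.55, whose array with the mutant in Cy3 read 3.03, and the mean was 0.02 without this mouse. A second Syt7 probe, 17718, gave 0.00 ± 0.21 (SD, n = 5).

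**Figure D2:**
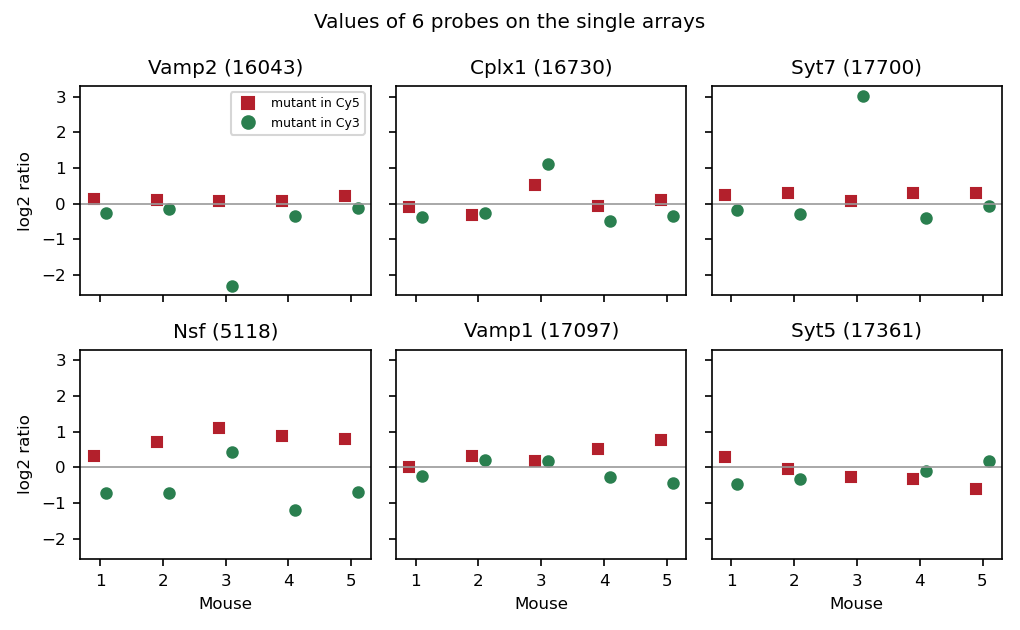
Log2 ratio (vertical axis) of 6 probes on the single arrays of each mouse (horizontal axis), with red squares for the mutant in Cy5 and green circles for the mutant in Cy3. The circle of mouse 3 lies far from the others at Vamp2 (-2.30) and Syt7 (3.03), both of its arrays are high at Cplx1, and at Nsf the 2 orientations separate in the other 4 mice.

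Of the vesicle membrane proteins, Syp, synaptophysin, gave 0.14, -0.06, -0.16, -0.19 and -0.22, with a mean of -0.10 ± 0.14 (SD, n = 5) and an interval from -0.34 to 0.14. Its dye term was -0.21 ± 0.09 (SD, n = 5), with a limma adjusted p of 0.199. The orientations did not overlap, with Syp between -0.52 and -0.06 with the mutant in Cy5 and between 0.015 and 0.33 in Cy3. Sv2a, a transporter-like glycoprotein of vesicles, was at 0.04 ± 0.16 (SD, n = 5), with an interval from -0.21 to 0.28. Its orientations did not overlap either, and its dye term was -0.26 ± 0.15 (SD, n = 5) with a limma adjusted p of 0.168. Syngr1, a synaptogyrin of neurons, was above 0 in the 4 mice measured, at 0.05, 0.10, 0.35 and 0.80. Its mean was 0.32 ± 0.34 (SD, n = 4), but the orientation means had opposite signs, at -0.09 with the mutant in Cy5 and 0.70 in Cy3. Syngr2, its counterpart outside neurons, gave -0.06 ± 0.44 (SD, n = 5). Syngr4 was below 0 in all 5 mice, at -0.61, -0.10, -0.31, -0.40 and -0.15, and in both orientation means. Its mean was -0.31 ± 0.20 (SD, n = 5) with a limma adjusted p of 0.911, and its dye term was 0.01. The synapsins Syn1 and Syn2, which tie vesicles to the cytoskeleton, had 5 and 4 values on the 10 arrays and were not tested. For Syn1 these ran from -2.96 to 1.20.

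Active zone and Rab3 genes all had a negative pair mean, 7 of 7 with a median of -0.09, against 50.8% negative among all genes tested. By probe it was 9 of 10, since 1 of 3 Bsn probes was positive. None passed in limma, and the mouse values spread over both sides of 0 at each gene. Rab3a, the vesicle GTPase of most synapses, gave 0.20, -0.04, -0.16, -0.10 and -0.27, with a mean of -0.08 ± 0.17 (SD, n = 5) and a dye term of -0.03 ± 0.62. Rims1, a scaffold that links Rab3 to release sites, gave -0.08, -0.20, -0.09, -0.12 and 0.15 on probe 17125, a mean of -0.07 ± 0.13 (SD, n = 5). Its second probe held a capped ratio in mouse 1, so its mean of -1.91 ± 4.58 (SD, n = 4) is not read. Rims3 was at -0.09 ± 0.29, Rab3b at -0.10 ± 0.33 (n = 4) and Rab3d, a form of exocrine cells, at -0.10 ± 0.25 (SD, n = 5 where not stated). Bsn, the scaffold Bassoon, had means of -0.10, 0.09 and -0.05 on 3 probes. By mouse, the median of the group was positive in mice 1 and 2 and negative in the other 3. Leaving out 1 mouse gave 5 of 7 without mouse 3, 4 or 5 and 6 of 7 without mouse 1 or 2. As dye terms, 4 of 7 were negative. Rims1 probe 17125 had a dye term of -0.29 ± 0.12 (SD, n = 5), with all 5 arrays with the mutant in Cy5 between -0.42 and -0.26 and those in Cy3 between -0.03 and 0.62.

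V-ATPase subunits were more often negative than positive, at 13 of 19 genes with a median of -0.08, against 50.8% negative and a median of -0.003 over all genes tested. The median of the group was below 0 in each mouse, at -0.07, -0.02, -0.003, -0.13 and -0.09. Without mouse 3 the count was 12 of 19, and without its array with the mutant in Cy3 it was 13. As dye terms, 10 of 19 were negative and their median was -0.02. Atp6v1c2, an isoform of the C subunit best known from kidney and lung, had the smallest p of all members. It gave -0.83, -0.44, -0.46 and -0.49 in mice 1, 2, 4 and 5, with a mean of -0.55 ± 0.18 (SD, n = 4) and an interval from -0.87 to -0.24. After adjustment its p in limma was 0.911. Mouse 1 was lowest, and the mean was -0.46 without it. A list of kidney markers was examined because of the unexplained Kdn in the source name of the mutant RNA. In the pair mean 4 of its 6 genes were positive, with a median of 0.24 and mouse medians from 0.02 to 0.28. As dye terms, 4 of 6 were negative, with a median of -0.16. None of its 8 probes passed in limma, and its bearing on the Atp6v1c2 value or on the source name was not tested. Atp6v1c1, the widely expressed paralog of Atp6v1c2, was at 0.04 ± 0.06 (SD, n = 5) on probe 2247 and at -0.25 ± 0.28 (SD, n = 5) on probe 17063. Atp6v0a1, the membrane subunit of neuronal pumps, was below 0 in all 5 mice, at -1.09, -0.30, -0.04, -0.56 and -0.26. Its mean was -0.45 ± 0.40 (SD, n = 5), and -0.29 without mouse 1, whose array with the mutant in Cy3 read -2.12. The 3 probes of Atp6v0a2, a Golgi form, had means of 0.09, 0.12 and 0.25.

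Subunits of the catalytic V1 part were measured more tightly. Atp6v1a gave -0.08 ± 0.15, Atp6v1b2 -0.01 ± 0.21, Atp6v1f -0.02 ± 0.08 and Atp6v1h -0.05 ± 0.17 (SD, n = 5 each). The brain form Atp6v1g2 was at 0.10 ± 0.19 and the widely expressed Atp6v1g1 at -0.13 ± 0.30 (SD, n = 5 each). Atp6v1g3, a form of kidney, had the largest dye term among probes without a capped value. It read from 0.84 to 1.81 on the 4 measured arrays with the mutant in Cy5 and from -2.11 to -0.84 on the 5 in Cy3, so the orientations did not overlap. Its dye term was 1.33 ± 0.48 and its pair mean -0.21 ± 0.29 (SD, n = 4 each). Dye terms of the other 22 V-ATPase probes ran from -0.79 (Atp6v0e) to 0.42 (Atp6v0a2 probe 4381), with -0.32 ± 0.49 for Atp6v1c2 (SD, n = 4) and 0.22 ± 0.48 for Atp6v0a1 (SD, n = 5).

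The difference between neuronal and general trafficking isoforms was smaller than its spread between mice. V-ATPase subunits were kept as a class of their own. The gene median was -0.02 for 21 neuronal genes and -0.05 for 22 general ones, a difference of 0.03. Within the mice this difference was -0.07, -0.05, -0.16, 0.02 and 0.10, an SD of 0.09, with 2 positive and 3 negative. Negative values were found at 11 of 21 neuronal and 15 of 22 general genes. Over all 64 member genes it was 41, and their median was -0.05. Without mouse 3 the negative counts were 12 of 21, 16 of 22 and 41 of 64, while 54.7% of all genes were negative there. As dye terms the medians were -0.003 for neuronal and 0.07 for general genes, and the difference of -0.08 was negative in 4 of 5 mice, from -0.39 to 0.06.

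**Figure D3:**
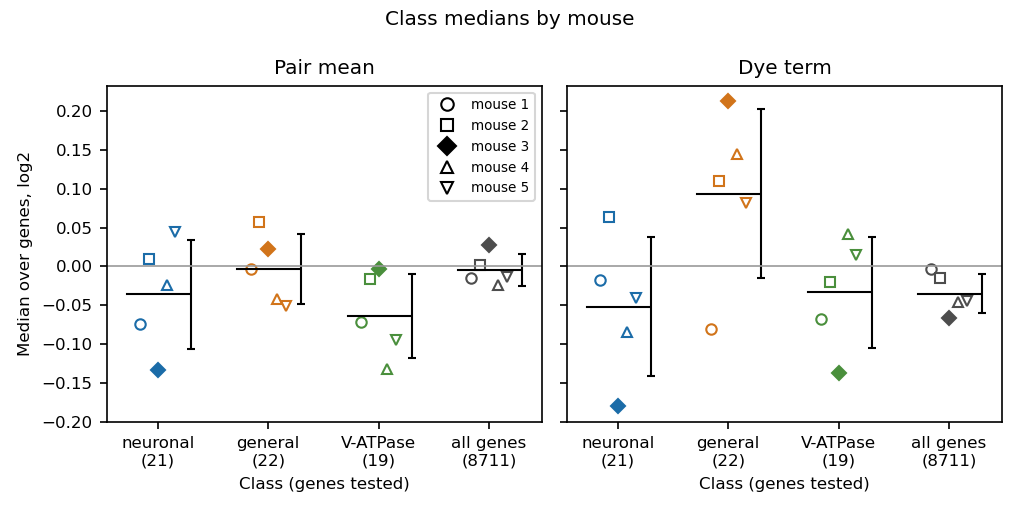
Median over the genes of a class in each mouse (log2, vertical axis) for neuronal, general and V-ATPase members and for all genes, as pair mean on the left and dye term on the right; bars are the mean ± SD of the 5 mouse medians. Neuronal and general medians overlap in both panels, and V-ATPase pair means lie between -0.13 and -0.003.

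The classes differed in how completely they were measured. Of 36 neuronal probes 27 could be tested (75%), against 33 of 35 general probes (94.3%), 23 of 24 V-ATPase probes (95.8%) and 83.5% of all single-symbol probes. Genes without a testable probe were Cplx3, Cplx4, Rab3c, Syn1, Syn2 and Syt9 among the neuronal ones and Vamp3 among the general ones. Where tested, neuronal probes had a median SD of 0.28 between mice, general probes 0.33 and V-ATPase probes 0.29, against 0.34 for all probes. Without mouse 3 these were 0.18, 0.24, 0.18 and 0.25. Mouse 3 was the farthest from the median of the 5 mice at 31 of 67 complete member probes (46.3%), and at 45.2% of all complete probes. Snap25, Unc13a, Pclo and Stx7 were not analysed here. Stx4a was at -0.10 ± 0.24 (SD, n = 5).

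Read as dye terms, members again passed nowhere with the mouse as the replicate, at 0 of 85 by limma against 0 of 16939 (0%), with 17 of 85 (20.0%) at an unadjusted p of 0.05 against 27.6% of all probes. The smallest adjusted p was 0.0988, for Nsf probe 5118 and Atp6v1g3. The same sign in all 5 mice was found at 19 of 67 complete probes (28.4%), against 30.5%. The orientation means had opposite signs at 62 of 85 member probes (72.9%) and at 70.8% of all probes. With all 10 arrays in the fit and a dye covariate, 8 of 85 members passed (9.41%), against 12.1% of all probes. They were Nsf probe 5118 (0.67), Snap29 (0.67), Stxbp2 (0.65), Stx8 probe 13433 (0.54), Stx3 (0.49), Stx6 probe 6051 (-0.59) and Rims1 probe 17125 (-0.29), and Atp6v1g3 (1.26). By class these were 6 of 33 general, 1 of 27 neuronal and 1 of 23 V-ATPase probes. This fit treats the arrays of a mouse as almost independent, because their estimated correlation was -0.0196. Leaving out the mouse 3 array with the mutant in Cy3 raised the count to 17 of 85 (20.0%), against 25.5% of all probes, with 9 general, 5 neuronal and 3 V-ATPase probes. Among the added ones were Sncb (0.55) and Sv2a (-0.30).

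**Figure D4:**
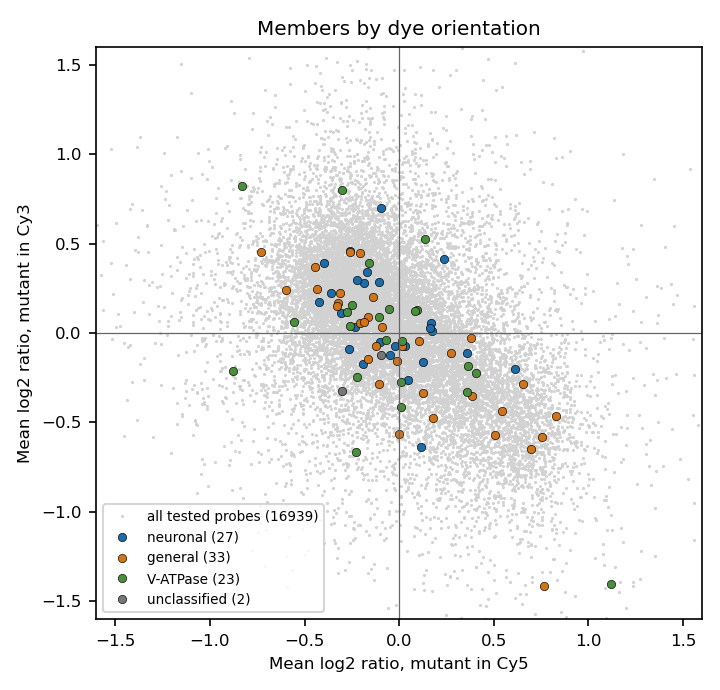
Mean log2 ratio over the arrays with the mutant in Cy5 (horizontal axis) and in Cy3 (vertical axis) for the 85 tested members, coloured by class, over all 16939 tested probes in grey. Members follow the falling diagonal of the grey cloud; the axes end at 1.6, which leaves out 1 member probe (Rims1 probe 18709) and 337 of all probes.

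Another list held other release genes (calcium channel, scaffold, vesicle transporter and priming proteins). In the pair mean, 14 of its 25 tested genes lay below 0 and 11 above, and the list median was -0.01. Its dye terms leaned to the negative side, at 19 genes against 6, and their median was -0.18. Among all genes 55.4% of dye terms were negative, and the median was -0.05. By mouse, the dye median of the list ran from -0.31 to -0.08. In limma 0 of its 40 probes passed in the pair mean or the dye term. Septin5, a septin that binds syntaxin, gave 0.65 ± 0.47 (SD, n = 5) on probe 17386 and -0.16 ± 0.36 (SD, n = 5) on probe 9051. Its dye terms on these probes shared a sign, at -0.87 ± 0.30 and -0.54 ± 0.28 (SD, n = 5 each). Cadps, a priming factor of dense-core vesicles, was at -0.23 ± 0.15 on probe 16911 and at -0.09 ± 0.35 on probe 14616 (SD, n = 5 each). Scamp1 was at -0.22 ± 0.18 (SD, n = 5) on probe 11914 and at 0.48 ± 0.96 (SD, n = 4) on probe 17761. Cacna1b, the N-type calcium channel, was at 0.26 ± 0.29 (SD, n = 5). Further SNARE and Sec1/Munc18 genes of general traffic divided into 8 positive and 8 negative pair means among 16 tested. The median of these pair means was -0.01, and 0 of 27 probes passed. As dye terms, 9 genes lay above 0 and 7 below. Vps33a, a Sec1-type subunit of the endosomal tethering complexes, gave 0.30 ± 0.19 (SD, n = 5) on probe 2047 and -0.58 ± 0.99 (SD, n = 4) on probe 16878. Sec22b, a SNARE between endoplasmic reticulum and Golgi, was at 0.51 ± 0.75 (SD, n = 5). Cell type markers likewise held no call. In the pair mean, neuron markers were negative at 6 of 8 genes (median -0.04), astrocyte markers at 5 of 6 (-0.05) and oligodendrocyte markers at 2 of 5 (0.02). Microglia markers were negative at 3 of 5 (-0.13), endothelial markers at 2 of 5 (0.07) and choroid plexus markers at 2 of 2 (-0.34).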

How the data were processed

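The authors deposited 1 log2 ratio per probe and array for 10 two-colour arrays, labelled indirectly with Cy3 and Cy5 per the labels' protocols. The sources used here do not give the scanner, background correction, normalization or numerator. The number of arrays limits precision. Symbols are those of the array's annotation and may be outdated; all 97 members matched an Entrez identifier in the RefSeq table of GRCm38.p6. Columns were centred on the median. Each mouse gave the mean of its arrays (pair mean) and their difference divided by 2 (dye term). A limma 3.58.1 model (lmFit, eBayes; R 4.3.3) compared the 5 mouse values with 0, with Benjamini-Hochberg adjustment over all 16939 probes that had both arrays in at least 4 mice and a threshold of 0.05. Gene medians average the probes of a gene. No probe was imputed, and mice without both arrays were dropped for that probe.

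Members, classes and lists (other release genes, other general SNAREs and Sec1/Munc18 proteins, and markers of neurons, astrocytes, oligodendrocytes, microglia, endothelium, choroid plexus and kidney) were chosen with earlier results of these data known. Named were every probe of the 18 core genes that had one, out of 26 core names, up to 3 other probes per role with the smallest p of the pair mean and up to 2 of the dye term, members with 1 sign in all mice and both orientations, and up to 4 probes per pathway list; other members named were chosen after their values were seen. The script was tested on simulated data. Alternatives were no centring, scaling, capped values missing, array-level fits, each orientation, other filters, the most complete probe, V-ATPase as general and leaving out each mouse. The fit without the mouse 3 array in Cy3 was chosen after seeing the data.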

Additional observations from a re-analysis of the deposited data

Results flagged for a closer look

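Among 49 sets of mouse values examined (named members and class medians), 8 held a mouse far from the others, where chance alone gives about 1 in 20 sets. By the same rule, 10 of all 85 tested members (11.8%) and 11.8% of all 16939 probes held a mouse apart, so the members' share was that of the arrays as a whole. Mouse 3 was apart at Vamp2 (-1.12, others -0.15 to 0.04), Cplx1 (0.82, others -0.30 to -0.11), Syt7 probe 17700 (1.55, others -0.06 to 0.11) and Nsf probe 5118 (0.77, others -0.20 to 0.06). Mouse 1 was apart at Nsf probe 8981 (-0.55, others 0.02 to 0.26), Syt1 probe 16782 (-0.11, others 0.11 to 0.17), Syt5 (-0.093, others -0.21 to -0.19) and Atp6v1c2 (-0.83, others -0.49 to -0.44). The array of mouse 3 with the mutant in Cy3 also stood apart over all probes. Without that array the pair mean went from -0.26 to -0.05 at Vamp2, from 0.33 to -0.0004 at Syt7 probe 17700, from 0.09 to -0.04 at Nsf probe 5118 and from -0.02 to -0.17 at Cplx1, where the other array of mouse 3 was high too.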

How the results depend on the processing

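The count of members called in the pair mean was 0 under all alternatives that were run. Members called in the dye term numbered 2 after scaling between arrays (Nsf probe 5118 and Atp6v1g3, against 1.52% of all probes), 8 with all 10 arrays and a dye covariate, and 17 without the mouse 3 array with the mutant in Cy3. With the sign of the Cy3 columns turned, the median of members was 0.0097, of general members 0.072 and of V-ATPase members -0.019, and neuronal minus general was -0.076. Leaving out 1 mouse gave medians from -0.08 to -0.03 for members, -0.06 to 0.04 for neuronal, -0.059 to -0.0043 for general (the latter without mouse 5) and -0.10 to -0.05 for V-ATPase genes, and a neuronal minus general difference from -0.03 to 0.09. Scaling between arrays left 6 of 7 active zone genes negative and moved the neuronal median to 0.01. Of 45 named probes, 23 kept their sign whichever mouse was left out, and 21 had the opposite sign with the Cy3 columns turned. The cause of these moves was not tested. The dye-swapped arrays of a mouse were paired in the fits with 1 value per mouse from both arrays. The array-level fits used the mouse as a random block instead, and the fits of 1 orientation held no pairs. Between groups, no paired analysis was possible because the series has 1 group of mice and a single pool.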

Other observations

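Probes of the same member gene were often unlike. Of 15 member genes with more than 1 tested probe, 7 had pair means of opposite sign (46.7%), against 55.6% of 2304 genes in all. For the dye term it was 12 of 15 (80.0%), against 56.9%. A gene with more probes has more room for opposite signs, and the 2 sets of genes were not matched in number of probes. The higher share is therefore not read as a trait of the members. The 12 were Bsn, Napa, Nsf, Rims1, Snap29, Stx12, Stx17, Stx5a, Stx6, Stx8, Syt11 and Atp6v0a2. Rims1 counts among them through probe 18709, which holds a capped ratio. The probes of Atp6v1c1, Atp6v1e1 and Syt7 shared the sign of the dye term.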
